A study of Mus musculus with 9 samples.

Results

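The ARMCX and GPRASP genes form a family of X-linked genes whose proteins share armadillo-like repeats. The 9 rows examined here were those with the symbols Armcx1, Armcx2, Armcx3, Armcx4, Armcx5, Armcx6, Gprasp1, Gprasp2 and Bhlhb9, out of 36410 rows in the deposited count table. The family was picked with the values of these same libraries in view, in all 3 comparisons between the cell lines. Its levels and changes are therefore given as a description, and no p-value is drawn from them.

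Ribosome footprints were counted in 3 immortalized mouse striatal cell lines of the C57/BL6 strain, with 3 libraries per line from separate rounds of culture. Control cells (STHdhQ7/Q7) carry Htt alleles with 7 glutamines, HD-het cells (STHdhQ7/Q111) carry 1 allele with 7 and 1 with 111 glutamines, and HD-homo cells (STHdhQ111/Q111) carry 2 alleles with 111 glutamines. All lines were exposed to cycloheximide for 10 min, which arrests elongating ribosomes, and footprints of 26 to 32 nt were taken from the 80S monosome fraction. Each genotype was 1 cell line, so that genotype and line cannot be told apart, and the p-values of any gene measure only the spread between cultures of the same line. Levels below are footprint amounts, with no mRNA level set against them.

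ARMCX3, also called ALEX3, sits on the outer mitochondrial membrane and binds the Miro and TRAK adaptors that couple mitochondria to kinesin, and ARMCX1 takes part in the same axonal transport. GPRASP1 binds the tails of several G protein-coupled receptors and steers them to lysosomes after endocytosis, whereas GPRASP2 is known for binding huntingtin itself. BHLHB9, known as p60TRP or GPRASP3, carries a helix-loop-helix name but belongs to the armadillo family. In placental mammals these genes lie in an X-chromosome region that also holds the BEX and TCEAL genes, small proteins enriched in brain.

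In the RefSeq annotation of GRCm38.p6, the same build as the mm10 named in the submitters' notes, the 9 members spanned 1205.4 kb of chromosome X, chrX:134685650-135891081. Each had its whole coding sequence in 1 exon. Armcx4, Armcx1, Armcx6, Armcx3 and Armcx2 lay together in this order, and after a gap of 933.5 kb followed Armcx5, Gprasp1, Gprasp2 and Bhlhb9. Armcx5 and Gprasp1 shared the same annotated start, at position 135742692, and hence the same promoter window. Coding sequences ran from 906 nt for Armcx6 to 7071 nt for Armcx4.

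Promoter windows were at hand for 8 of the 9 members and reached from 250 nt before to 50 nt after the start given in the RefSeq promoter table. That start was within 25 nt of the outer end of the gene span for 5 of the 8, but lay inside the span by 869 nt for Armcx4, 5247 nt for Armcx6 and 44212 nt for Bhlhb9. Spans, overlaps and distances are taken from the gene spans, and sequences from the promoter table. Gprasp2 and Bhlhb9 had closely related windows, with 272 identical columns of 312 in their alignment (87.2%). Over the first 250 nt, this pair was identical in 85.1% of columns. The 26 pairs of members with neither this near-identity nor a common start had 44.9 to 54.9%. Armcx5 and Gprasp1, which have the same window, each count in these pairs. For Gprasp2 and Bhlhb9, the 150 nt before each promoter-table start are shown because both genes carry nearly the same letters here. Their footprint levels in the mutant lines were very different, and use of these promoters was not measured. Capitals mark letters that differ or have no partner in the alignment. The first is chrX:135838884-135839033 and the second chrX:135885701-135885850, both on the plus strand of GRCm38.p6, the second of them within the annotated span of Bhlhb9.
Gprasp2: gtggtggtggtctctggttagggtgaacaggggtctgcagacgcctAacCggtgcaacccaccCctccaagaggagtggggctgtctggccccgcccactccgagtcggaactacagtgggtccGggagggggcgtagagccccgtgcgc
Bhlhb9: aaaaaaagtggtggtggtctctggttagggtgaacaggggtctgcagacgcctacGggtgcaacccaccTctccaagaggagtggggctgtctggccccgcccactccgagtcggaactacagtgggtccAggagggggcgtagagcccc
Where both stretches overlapped, 140 of 144 alignment columns were identical (97.2%).

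The palindrome CACGTG occurred in the windows of Armcx1, Armcx4 and Armcx6, which are 3 of the 8 members with a window, and in 7.15% of 32851 RefSeq promoters of the same length. It was also found in 8 of 12 promoters of BEX and TCEAL genes. The 30 nt that hold it are shown for these 3 genes of the first subcluster, with the palindrome in capitals. They lie at chrX:134717913-134717942 (plus strand), chrX:134751438-134751467 (minus strand) and chrX:134686494-134686523 (plus strand).
Armcx1: atctcactggtgacgtgcccctCACGTGag
Armcx6: agcttactggtgacgtggctgtCACGTGac
Armcx4: gcgagcgatgacgcggagccccCACGTGac
In Armcx1 and Armcx6 the longer TGACGTG, searched on both strands and not overlapping the palindrome, stood before it, a match present in 2.01% of all promoters. The other motifs searched were CACGTGA, which overlaps the palindrome (the same 3 members, 3.77% of all promoters), TGACGT (Armcx1, Armcx6, Armcx5 and Gprasp1, 7.51%) and GGCGGG (Armcx1, Armcx4, Gprasp2 and Bhlhb9, 35.3%). Armcx5 and Gprasp1 have the same window and so the same TGACGT. These matches are descriptions of the letters and do not show that a factor binds.

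Library totals ran from 22504543 to 41888701 counts. Levels are given as CPM, counts per 1000000 of the library total after its adjustment by the trimmed mean of M values (TMM), and 3 counts in 1 library, the limit that a count of 0 allows, corresponded to 0.0714 to 0.142 CPM. Of 9 striatal neuron markers, 3 reached 1 CPM in any library, namely Foxp1, Ppp1r1b and Penk. Drd1 and Drd2, the dopamine receptors that define striatal projection neurons, were at 0 in all libraries. Of 5 precursor genes, Nes was highest in HD-het (1028 to 1175 CPM), then control (307 to 467) and HD-homo libraries (6.43 to 7.65). Pax6 had the same order, and Gsx2 was at 0 throughout. Sox2 (48.6 to 55.4 CPM) and Vim (9172 to 9319 CPM) were instead highest in control libraries. HD-het libraries held 29.5 to 38.6 CPM of Sox2 and 7873 to 8590 CPM of Vim. In HD-homo libraries these genes had 1.82 to 2.75 CPM and 5979 to 6513 CPM. Of 5 neuron markers, Map2 (37.8 to 59.9 CPM) and Tubb3 (83.1 to 107 CPM) reached 1 CPM. All 5 mesenchymal markers (Col1a1, Col1a2, Col3a1, Acta2 and Pdgfrb) reached 1 CPM and none was at 0. Summed, they gave 6404 to 9163 CPM in control libraries, 5568 to 7077 CPM in HD-homo libraries and 25459 to 27750 CPM in HD-het libraries. Col1a1 and Acta2 led the sums in control and HD-het libraries, and Col1a1 and Col1a2 in HD-homo libraries. Single markers had other orders: Col1a2 had 904 to 1172 CPM in HD-homo against 67.9 to 119.5 CPM in HD-het libraries, and Acta2 had 184 to 346 CPM in HD-homo against 3803 to 4369 CPM in control libraries. The part of such line differences in the family's levels was not tested, and in bulk libraries fewer cells of a type and less RNA per cell cannot be told apart. Xist, a noncoding RNA, was at 0 in all 9 libraries, and the Y-linked Ddx3y had 70.3 to 100.3 CPM.

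Summed over the 9 members, footprints were lowest in control cells, at 44.2 ± 1.72 CPM (mean ± SD, n = 3), highest in HD-het cells, at 142 ± 9.08 CPM, and between them in HD-homo cells, at 87.5 ± 10.6 CPM. The libraries of the lines did not overlap, which ran from 42.6 to 46.0 CPM (control), 133 to 151 CPM (HD-het) and 79.0 to 99.4 CPM (HD-homo). On the log2 scale, the sum in HD-het cells was 1.68 above that in control cells and the sum in HD-homo cells 0.99 above it. Without Bhlhb9, a setting added after the data were seen, these differences were 1.39 and 0.54. The order of the lines was thus not set by this gene alone, although it supplied much of the rise in HD-homo cells. The summed mesenchymal markers were also highest in the HD-het line, though Col1a2 was highest in HD-homo cells. Their sums in control and HD-homo libraries overlapped, unlike those of the members.

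Of the 9 members, 8 passed the filter on low counts and Gprasp2 did not. A gene was called higher or lower where the edgeR quasi-likelihood test, adjusted over all 12678 genes tested, passed 0.05. In HD-het against control cells, 6 of the 8 tested members were called higher, where 31.0% of all genes were, and 0 were called lower, where 29.1% of all genes were. In HD-homo against control cells, 4 were called higher, against 23.3% of all genes, and 1 was called lower, against 22.3%. In HD-homo against HD-het cells, 0 were called higher, against 34.6% of all genes, and 4 were called lower, against 32.8%. The median log2 fold change of the tested members was 1.74, 0.64 and -0.24 in these comparisons, and that of all genes was 0.02 in each. Libraries of both lines did not overlap for 6 of the 8 tested members in HD-het against control cells (71.2% of all genes), for 6 in HD-homo against control cells (55.5%) and for 4 in HD-homo against HD-het cells (69.5%). The lines differed in so many genes that such separation was common, and nothing about the family is read from these counts, because its members were chosen on the same comparisons. Both comparisons against control share the control libraries.

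**Figure D1:**
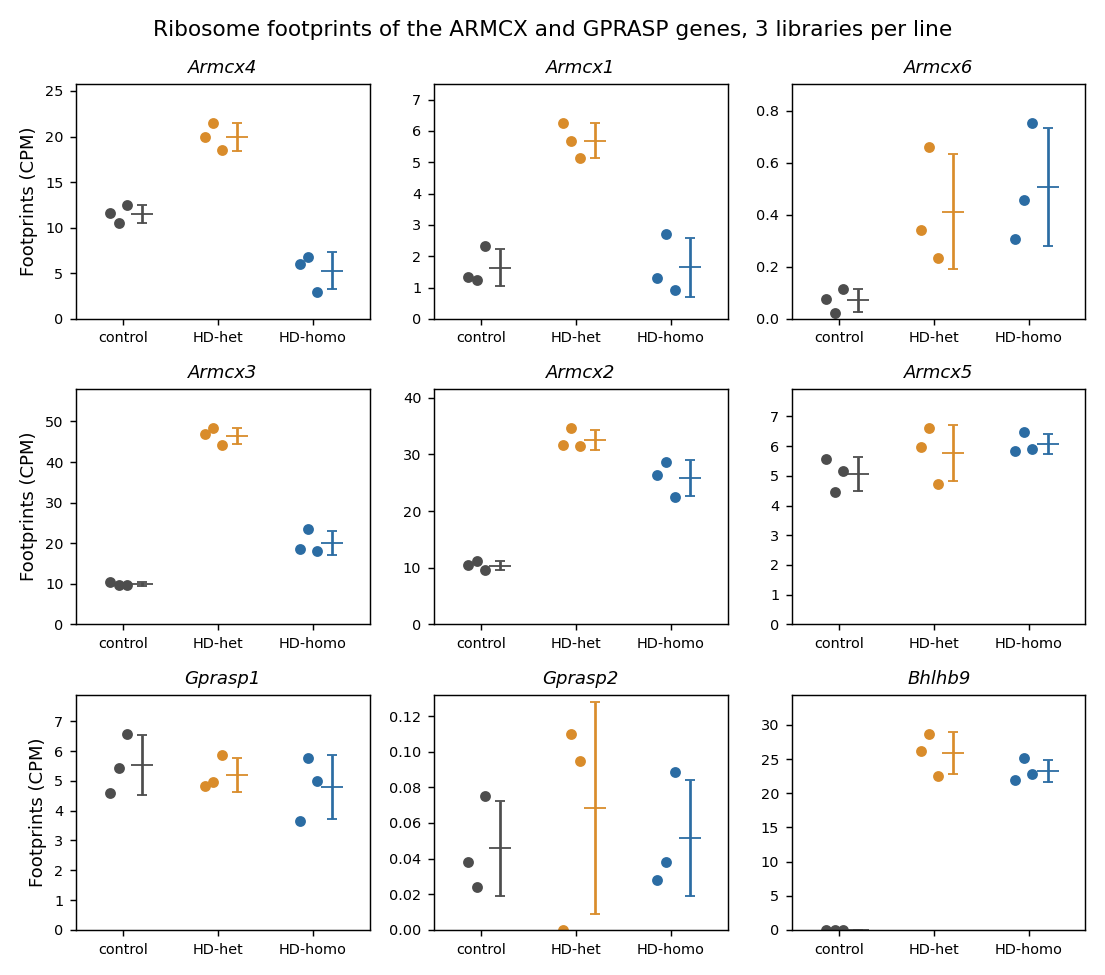
Ribosome footprints (CPM, linear axes that start at 0 and differ between panels) of the 9 members, by cell line. Dots are libraries and the bar beside them is the mean ± SD of 3. Armcx1, Armcx3 and Armcx4 were highest in HD-het cells, Bhlhb9 was near 0 only in control cells, and Armcx5 and Gprasp1 lay between 3.64 and 6.60 CPM in every library.

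Bhlhb9 showed the widest contrast of the family. Control libraries held 0, 1 and 1 counts, HD-het libraries 691, 1042 and 478 counts, and HD-homo libraries 788, 656 and 513 counts. Both mutant lines thus lay far above all control libraries. In CPM, HD-het cells had 25.8 ± 3.05 and HD-homo cells 23.3 ± 1.64 (SD, n = 3), and the libraries of these lines overlapped. The ratio of pooled counts to those of control cells was 1249.9 for HD-het (exact 95% interval 346 to 10327) and 1096 for HD-homo cells (303 to 9055). These intervals cover counting error only, since control cells held 2 counts in all, and PCR copies of a fragment cannot be told from separate fragments.

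Gprasp2, the huntingtin-binding member, had 1, 1 and 2 counts in control cells, 0, 4 and 2 in HD-het cells, and 1, 1 and 2 in HD-homo cells. Only HD-het replicate 2 rose above 3 counts, so that no fold change is given and the gene was at the limit of detection in all lines. Its annotated span overlaps that of Bhlhb9 by 3092 nt on the same strand, although their coding exons are apart. The promoter stretches printed above belonged to 2 neighbours, of which Bhlhb9 had at least 478 footprints in each mutant library and Gprasp2 at most 4. Which start either gene used in these cells was not measured.

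Gprasp1, the receptor-sorting member, and Armcx5, with which it shares its annotated start, had similar levels in the 3 lines. Gprasp1 measured 4.58, 5.45 and 6.58 CPM in control, 4.82, 4.95 and 5.86 CPM in HD-het, and 3.64, 5.77 and 5.01 CPM in HD-homo libraries. All lines overlapped. Its log2 fold change was -0.09 ± 0.19 (SE) in HD-het and -0.21 ± 0.19 in HD-homo against control cells, and 2 SE around these estimates reached from -0.47 to 0.29 and from -0.59 to 0.17. Armcx5 measured 5.58, 4.47 and 5.15 CPM in control, 5.96, 6.60 and 4.73 CPM in HD-het, and 5.84, 6.46 and 5.90 CPM in HD-homo libraries. The HD-homo libraries lay just above the control ones, and HD-het overlapped both. The log2 fold change of Armcx5 was 0.20 ± 0.15 in HD-het and 0.27 ± 0.15 in HD-homo against control cells, with 2 SE reaching from -0.10 to 0.50 and from -0.03 to 0.56. Of the coding 28-mers of Armcx5, 31.5% also occurred in transcripts of the predicted gene Gm8878 or of Mir7646, so that some of its footprints could be shared. Mir7646 held 27 of these 28-mers, lies within the coding exon of Armcx5 and had 0 counts in every library.

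Armcx3, the Miro-binding member, had the largest range of line means in CPM. It measured 10.4, 9.75 and 9.71 CPM in control, 46.8, 48.3 and 44.3 CPM in HD-het, and 18.6, 23.4 and 18.1 CPM in HD-homo libraries. The 3 lines did not overlap, and HD-homo cells stood between the others. The log2 fold change was 2.23 ± 0.11 (SE) in HD-het and 1.01 ± 0.11 in HD-homo against control cells. Nearly all of its coding sequence has a near copy: 97.5% of its 28-mers also occurred in the pseudogene Gm9299 or in the transcript CT571242.1. The count table held no row under either of these names. How the counting treated reads with several matches was not given in the sources used here.

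Armcx2 measured 10.4, 11.1 and 9.52 CPM in control, 31.7, 34.6 and 31.4 CPM in HD-het, and 26.4, 28.7 and 22.5 CPM in HD-homo libraries. Every mutant library exceeded every control library, and the HD-homo libraries lay below the HD-het ones by a small margin. The log2 fold change was 1.65 ± 0.11 in HD-het and 1.32 ± 0.11 in HD-homo against control cells. Between the mutant lines it was -0.33 ± 0.11, a difference that no longer passed the threshold without HD-het replicate 2 (-0.28), without HD-homo replicate 3 (-0.24) or with plain library totals (-0.25). None of the 28-mers of Armcx2 occurred in another transcript.

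Armcx4, which has the longest coding sequence of the family, lay above control cells in one mutant line and below them in the other. It measured 11.6, 10.5 and 12.5 CPM in control, 19.9, 21.5 and 18.5 CPM in HD-het, and 6.04, 6.81 and 2.97 CPM in HD-homo libraries. No lines overlapped, and HD-homo replicate 3 was lowest. The log2 fold change was 0.80 ± 0.21 in HD-het and -1.11 ± 0.22 in HD-homo against control cells, and the direct comparison of HD-homo with HD-het cells gave -1.91 ± 0.22.

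Armcx1, the other member tied to mitochondrial transport, was high in HD-het cells. It measured 1.34, 1.24 and 2.33 CPM in control, 6.26, 5.67 and 5.15 CPM in HD-het, and 1.31, 2.71 and 0.931 CPM in HD-homo libraries. Control and HD-homo libraries overlapped, and all HD-het libraries lay above both. The log2 fold change was 1.82 ± 0.33 in HD-het against control cells and -1.79 ± 0.33 in HD-homo against HD-het cells. In HD-homo against control cells it was 0.04 ± 0.36, and it changed sign without HD-homo replicate 2 (-0.48) and without either of the first 2 control libraries (-0.09 and -0.15).

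Armcx6 was close to the detection limit in control cells, with 2, 1 and 3 counts, and had 9, 24 and 5 counts in HD-het and 11, 12 and 17 counts in HD-homo libraries. The pooled ratio to control cells was 7.16 for HD-het (exact 95% interval 3.00 to 20.7) and 7.47 for HD-homo cells (3.15 to 21.5), counting error only. The fitted log2 fold change of HD-het cells was 2.70 ± 0.65, and 2.11 without HD-het replicate 2, which held most of that line's counts. The mutant lines overlapped each other. The gene overlaps Armcx3 by 115 nt on the opposite strand, and 45.4% of its coding 28-mers also occurred in the predicted gene Gm16397. The use of strand in the counting was not given in the sources used here.

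**Figure D2:**
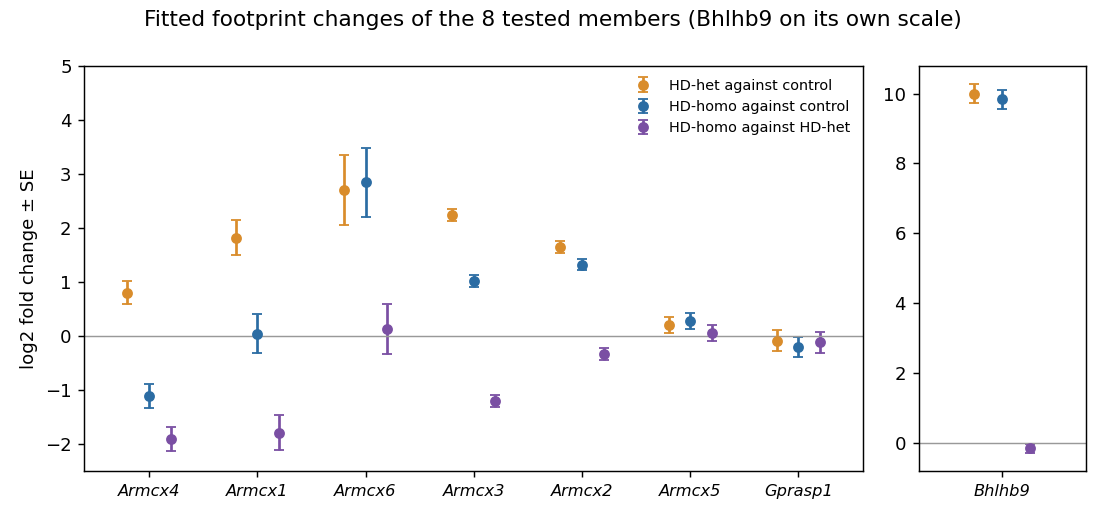
Fitted log2 fold changes (vertical axis, dots) with SE (bars) of the 8 tested members in the 3 comparisons, with Bhlhb9 on a scale of its own. Armcx4 lay above 0 in HD-het (0.80) and below 0 in HD-homo against control cells (-1.11), and Armcx5 and Gprasp1 lay near 0 throughout. The values of Bhlhb9 and Armcx6 against control rest on control counts of at most 3 and depend on the prior of the fit. The bars of Bhlhb9 against control are narrower than its exact interval from pooled counts, a ratio of 346 to 10327 in HD-het cells.

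Levels of different members were compared as CPM per kb of coding sequence. Armcx3 was the highest member in every line, at 8.72 ± 0.315 CPM per kb in control cells, 40.8 ± 1.78 in HD-het cells and 17.6 ± 2.53 in HD-homo cells (SD, n = 3). In control cells Armcx2 followed with 4.40 ± 0.339 CPM per kb, then Armcx5 with 2.78 ± 0.306. Armcx4, Gprasp1 and Armcx1 came next, at 1.63, 1.37 and 1.19 CPM per kb, and neighbours in this order overlapped. In both mutant lines Bhlhb9 held the second place, at 15.9 ± 1.88 CPM per kb in HD-het cells and 14.4 ± 1.01 in HD-homo cells. It overlapped Armcx2 (13.8 ± 0.751) in HD-het but not in HD-homo cells, where Armcx2 had 11.0 ± 1.34 CPM per kb. Armcx4, with its long reading frame, ranked 4 of 9 per kb in control cells, 6 in HD-het cells (2.82 ± 0.210) and 7 in HD-homo cells (0.746 ± 0.287). Gprasp2 was last in both mutant lines and overlapped Bhlhb9 and Armcx6 at the bottom of the order in control cells.

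The shares of Armcx4, Armcx5 and Bhlhb9 in the family did not overlap between any lines. Other members overlapped between some lines, such as Armcx1 and Armcx2 between control and HD-het and Armcx3 between control and HD-homo libraries. In control cells Armcx4, Armcx2 and Armcx3 held 26.1 ± 1.29%, 23.5 ± 2.71% and 22.5 ± 1.26% of the members' summed CPM (SD, n = 3). In HD-het cells Armcx3 held 32.8 ± 0.692% and Bhlhb9 18.2 ± 1.02%, and Armcx4 held 14.1 ± 0.145%. In HD-homo cells Armcx2 led with 29.6 ± 1.58%, Bhlhb9 held 26.7 ± 1.86% and Armcx4 5.93 ± 1.89%. Gprasp1 and Armcx5, whose levels were similar in the 3 lines, held 12.5 ± 1.96% and 11.5 ± 1.11% in control cells but 3.70 ± 0.625% and 4.04 ± 0.427% in HD-het cells. These shares follow CPM and so weight long reading frames more than short ones.

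**Figure D3:**
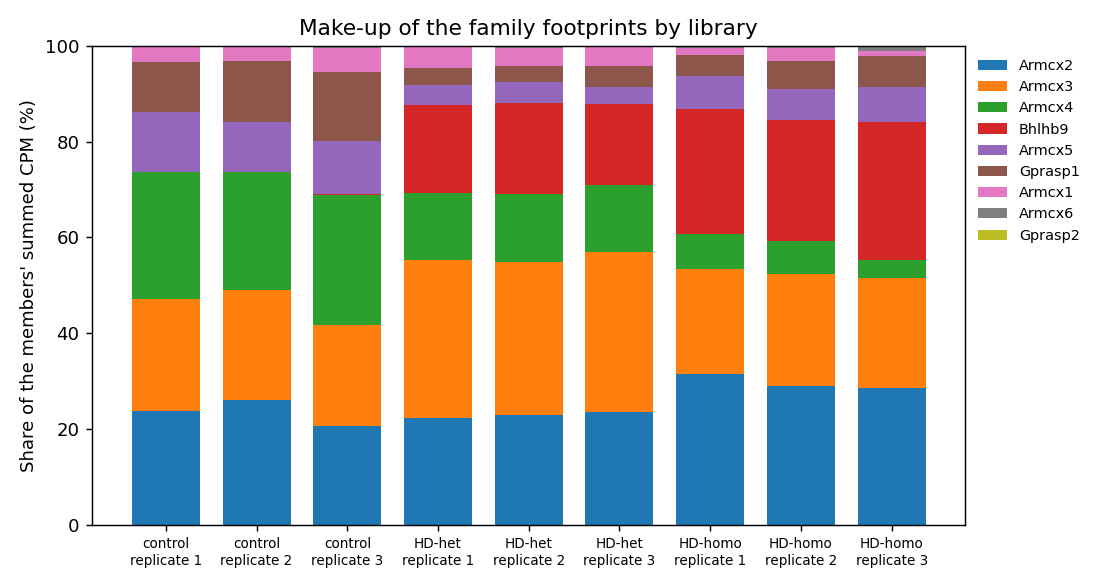
Share (%) of each member in the summed CPM of the family, 1 stacked bar per library. Bhlhb9 was 0 to 0.0818% of the sum in control libraries, 17.0 to 19.0% in HD-het and 25.2 to 28.8% in HD-homo libraries, and Armcx4 took a larger share in each control library (24.6 to 27.1%) than in any mutant library.

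Neighbouring genes were taken as all RefSeq genes within 1 Mb of the outermost members. Of 115 such genes other than the members, 66 had a row in the count table and 25 passed the filter. Arxes1 and Arxes2 count separately among the 25, though their counts were the same. In HD-het against control cells, 10 of the 25 were called higher (31.0% of all genes) and 7 lower (29.1%). The median log2 fold change was 0.27 (0.13 with genes at 3 counts or fewer set to their bound). In HD-homo against control cells 6 were called higher (23.3%) and 6 lower (22.3%), with a median of 0.11. In HD-homo against HD-het cells 8 were called higher (34.6%) and 12 lower (32.8%), with a median of -0.47. Over the 432 tested genes of chromosome X outside the family, 40.5% were called higher and 17.1% lower in HD-het against control cells. These shares were 23.1% and 22.0% in HD-homo against control cells, and 25.5% and 42.8% in HD-homo against HD-het cells.

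Close to Armcx4, the mitochondrial import gene Timm8a1 was lower in HD-het cells, at 16.7 ± 1.81 CPM, than in control cells, at 29.6 ± 2.11 CPM (log2 fold change -0.82 ± 0.12). The ribosomal protein gene Rpl36a was higher in the HD-homo than in the HD-het line, with a log2 difference of 0.86 ± 0.09. Further out, Tspan6 (1.08 ± 0.20) and the tRNA methyltransferase gene Trmt2b (0.99 ± 0.12) were above control in the HD-homo line. Both were also called higher in the HD-het line, by 1.55 ± 0.20 for Tspan6 and 0.49 ± 0.12 for Trmt2b. The mean of Tspan6 thus had the same order of lines as the members' sum, with HD-homo below HD-het cells (-0.47 ± 0.19). Trmt2b was instead highest in the HD-homo line, 0.50 ± 0.12 above the HD-het line. Beyond Bhlhb9, Arxes1 and Arxes2, a pair of rows with the same counts in all 9 libraries, had 7.29 ± 0.792 CPM in control cells, 32.0 ± 0.608 CPM in HD-het cells and 8.51 ± 1.55 CPM in HD-homo cells. Their log2 fold change was 2.13 ± 0.13 in HD-het against control cells, and HD-het was the highest line, as for Armcx1.

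Of the BEX and TCEAL genes, which belong to the same window, 11 had a row and 9 were tested. In HD-homo against control cells 6 of the 9 were called lower (22.3% of all genes) and 1 higher (23.3%), and in HD-homo against HD-het cells 8 were called lower (32.8%) and 1 higher (34.6%). Of the 9, 6 had at most 3 counts in every library of 1 line or more. With at least 10 counts required in every library, only Bex3, Tceal8 and Tceal9 could be tested. All 3 were called lower in each of these comparisons. In HD-het against control cells 3 were called higher (31.0%) and 3 lower (29.1%). Bex1 fell from 14.9 ± 3.06 CPM in control cells to 5.15 ± 0.772 CPM in HD-het cells, and its HD-homo libraries held 4 counts in all. The pooled ratio of control to HD-homo cells for Bex1 was 304 (exact 95% interval 118 to 1117). Bex3, which binds the p75 neurotrophin receptor, had 159 ± 9.05 CPM in control cells, 125 ± 9.43 CPM in HD-het cells and 69.1 ± 11.5 CPM in HD-homo cells. For Tceal8 the log2 fold change between the mutant lines was -1.10 ± 0.17, with the lower level in HD-homo cells. Against control cells, the median over the list was 0.15 in HD-het (0.04 with genes at 3 counts or fewer set to their bound) and -1.20 in HD-homo cells (-1.20). Between the mutant lines the median was -6.26 (-3.82).

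**Figure D4:**
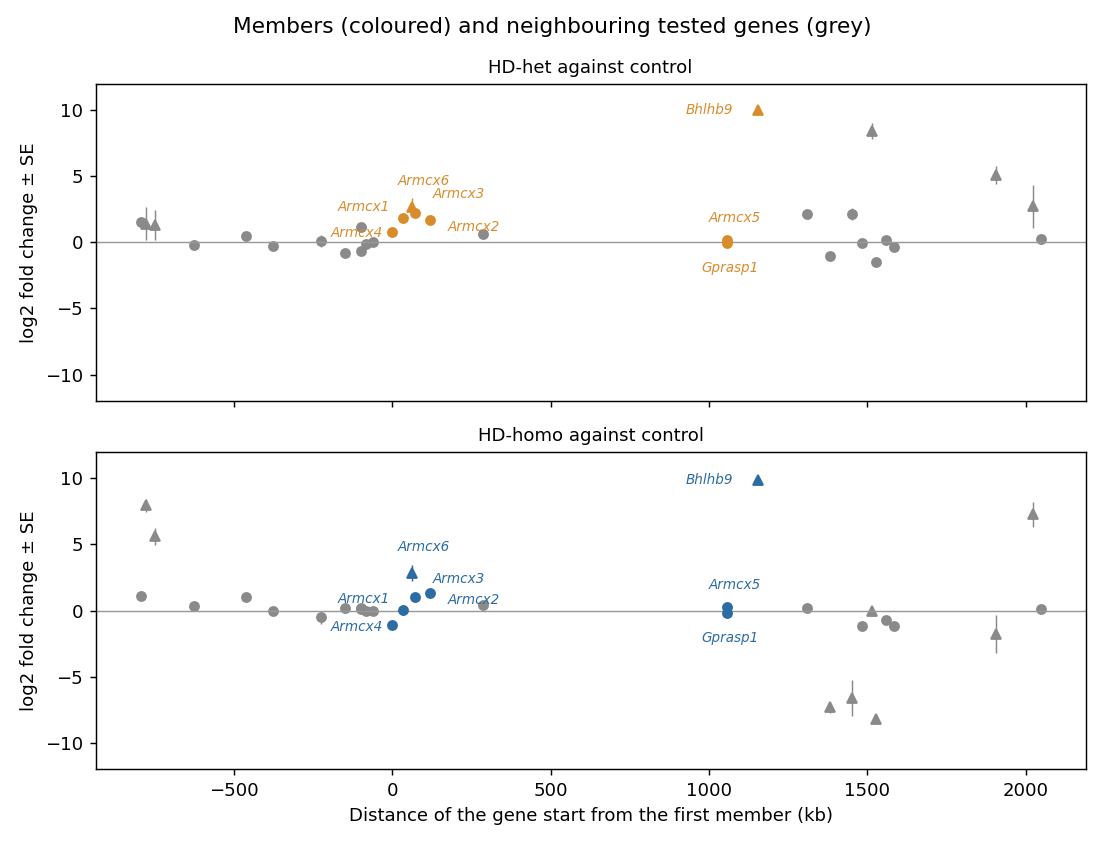
Fitted log2 fold changes with SE (vertical axis) of members (coloured) and other tested genes (grey) against the distance of their start from that of Armcx4 in kb, for HD-het (top) and HD-homo (bottom) against control cells. Triangles mark genes with at most 3 counts in every library of a line compared, whose fitted values depend on the prior of the fit, and Arxes1 and Arxes2 share 1 dot. The first 5 members lay above 0 in HD-het cells (0.80 to 2.70). Of the tested members about 1057.0 kb away and beyond, Armcx5 and Gprasp1 lay near 0 and Bhlhb9 lay at 10.00. The SE bar of Bhlhb9 was narrower than its exact interval from pooled counts.

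Of 28 mitochondrial transport genes, which include those of the Miro and TRAK adaptors bound by ARMCX3, 26 were tested. In HD-het against control cells 30.8% of them (8 genes) were called higher, where 31.0% of all genes were, and 19.2% (5) lower, where 29.1% were. In HD-homo against control cells 7.69% (2) were called higher, against 23.3% of all genes, and 34.6% (9) lower, against 22.3%. Between the mutant lines 26.9% (7) were called higher in HD-homo cells, against 34.6%, and 34.6% (9) lower, against 32.8%. The median log2 fold changes were -0.03, -0.11 and -0.12, where that of all genes was 0.02. Dync1h1, the heavy chain of cytoplasmic dynein, moved in opposite directions from control cells, with log2 fold changes of 1.12 ± 0.11 (HD-het) and -1.06 ± 0.12 (HD-homo). Kif5c, a neuronal kinesin heavy chain, had 23.0 ± 0.799 CPM in control and 25.6 ± 3.31 CPM in HD-het cells but 2.34 ± 0.301 CPM in HD-homo cells. Miga1, which promotes mitochondrial fusion, was above control in the HD-het line (0.76 ± 0.21), and the HD-homo line was below the HD-het line (-3.34 ± 0.26). The Miro gene Rhot2 (-0.45 ± 0.10) and Kif1bp (-0.45 ± 0.11) were lower in HD-het than in control cells. The ubiquitin ligase gene Mul1 (0.49 ± 0.15) and the dynein regulator Ndel1 (0.33 ± 0.10) were above control in the HD-homo line.

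Of 30 genes for G protein-coupled receptors and receptor sorting, 22 were tested. In HD-het against control cells 27.3% of them (6 genes) were called higher, against 31.0% of all genes, and 45.5% (10) lower, against 29.1%. HD-homo against control cells gave 27.3% (6) called higher, against 23.3%, and 18.2% (4) lower, against 22.3%. Between the mutant lines 45.5% (10) were called higher in HD-homo cells, against 34.6%, and 22.7% (5) lower, against 32.8%. The median log2 fold changes were -0.13, 0.06 and 0.17. Arrb1, an arrestin that uncouples active receptors, had 7.94 ± 0.433 CPM in control cells, 3.76 ± 1.08 CPM in HD-het cells and 16.6 ± 1.03 CPM in HD-homo cells, and both mutant lines passed the threshold in opposite directions. Slc9a3r1, a scaffold that helps receptors recycle, was lower in both mutant lines, with log2 fold changes of -1.70 ± 0.17 (HD-het) and -2.26 ± 0.17 (HD-homo). Dtnbp1, which encodes the GPRASP1 partner dysbindin, was above control in the HD-homo line by 0.67 ± 0.08. Tsg101, of the ESCRT machinery that sorts receptors into endosomal vesicles, was higher in HD-het (0.31 ± 0.09) and lower in HD-homo cells (-0.29 ± 0.09), and Stam2 was higher in HD-het cells (0.55 ± 0.08). For the receptor kinase gene Grk5, the HD-homo line exceeded the HD-het line by 1.38 ± 0.24.

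Among 9649 named genes with at least 5 CPM in their highest line, those whose log2 CPM followed the members' sum most closely over the 9 libraries were Vps39 (Pearson r = 0.996), Plekha2 (0.996) and Fahd2a (0.990). For Armcx3, the member with the largest range of line means, they were Dhrs3 (0.995), Pnrc2 (0.995) and Rab39b (0.992). Rab39b, a small GTPase gene, is also on chromosome X and had 2.86 ± 0.0687 CPM in control cells, 5.40 ± 0.141 CPM in HD-het cells and 3.77 ± 0.0181 CPM in HD-homo cells. The 9 libraries fall into 3 lines, so that any gene with its highest level in HD-het and its lowest in control cells scores high, and none of these genes was also among the top 3 by Spearman's rank correlation.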

How the data were processed

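Ribosome footprints of 3 lines, 3 libraries each, were deposited as raw counts per gene symbol, with no normalization by the authors. The submitters' processing notes name cutadapt, Bowtie 1.0.1 and mm10. The counter, its annotation and its use of strand were not given in the sources used here. Samples were grouped by the genotype in their labels.

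The deposited counts went into edgeR 4.0.16 under R 4.3.3 (quasi-likelihood test), with TMM factors, the filterByExpr filter by line, all 9 libraries in 1 fit and Benjamini-Hochberg adjustment over 12678 genes at 0.05. The fitting was tested on simulated data. The SE of a log2 fold change was its size divided by the square root of the quasi-likelihood F statistic. DESeq2 1.42.0, other scalings and filters, the replicate number as a block and each library left out were alternatives. Totals ran from 22504543 to 41888701 counts. The SD and SE given with values also hold the spread between libraries of a line.

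Members and lists were chosen with earlier results of these data known. All members are named. From each list, named genes came from the 2 largest rises and 2 largest falls past the threshold per comparison, with at least 5 CPM in the higher line. Loci and promoters came from RefSeq tables of GRCm38.p6, and 28-mers were compared over transcripts of the GENCODE annotation.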

Additional observations from a re-analysis of the deposited data

Results flagged for a closer look

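For 4 members, the effects of the mutant lines against the shared control cells differed by the direct comparison of HD-homo with HD-het cells, adjusted over all genes with edgeR. The log2 difference was -1.91 for Armcx4, which was above control cells in HD-het and below them in HD-homo cells, and -1.79 for Armcx1. It was -1.21 for Armcx3 and -0.33 for Armcx2, both of which were above control cells in both lines. The members were chosen with these values in view, so that the differences are a description.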

How the results depend on the processing

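The counts of members called were the same or within 1.5 times under every alternative but one. With at least 10 counts required in every library, 2 members were called higher in HD-homo against control cells in place of 4, because Armcx6 and Bhlhb9 were no longer tested. The log2 ratio of the members' summed CPM became 1.85 in HD-het and 1.25 in HD-homo against control cells when taken as the mean of log2 CPM. Without Bhlhb9, an alternative chosen after seeing the data, it became 1.39 in HD-het and 0.54 in HD-homo against control cells, and -0.85 between the mutant lines. With 1 library left out at a time, it ran from 1.64 to 1.73, from 0.88 to 1.05 and from -0.80 to -0.63. Log2 fold changes that were not called changed sign in 8 cases, all with 1 library left out. Their ranges were -0.22 to 0.04 for Gprasp1 in HD-het cells and -0.48 to 0.36 for Armcx1 in HD-homo cells, against control (other values below 0 were -0.09 and -0.15). Between the mutant lines they were -0.05 to 0.18 for Armcx5, -0.23 to 0.72 for Armcx6 (with -0.09 among them) and -0.28 to 0.06 for Gprasp1. The call of Armcx2 between the mutant lines was lost without HD-het replicate 2 (-0.28), without HD-homo replicate 3 (-0.24) and with plain library totals (-0.25). The replicate numbers did not pair the libraries, since correlations of same-numbered libraries ran from -0.356 to 0.175. With the replicate number as a block, 6, 4 and 0 members were called higher and 0, 1 and 4 lower in the 3 comparisons, the same counts as without it. Counts over the gene lists moved by more than 1.5 times as follows. Requiring a 2-fold change, in HD-het against control cells the window genes called lower went from 7 to 2, mitochondrial transport genes from 8 to 1 higher and from 5 to 0 lower, and receptor sorting genes from 6 to 2 higher and from 10 to 3 lower. In HD-homo against control cells mitochondrial transport genes went from 2 to 0 higher and from 9 to 4 lower, and receptor sorting genes from 6 to 1 higher and from 4 to 2 lower. Between the mutant lines window genes went from 8 to 4 higher, mitochondrial transport genes from 7 to 0 higher, and receptor sorting genes from 10 to 3 higher and from 5 to 2 lower. With an adjusted p under 0.01, window genes (7 to 4) and mitochondrial transport genes (5 to 2) called lower in HD-het cells, mitochondrial transport genes called higher in HD-homo cells (2 to 0) and receptor sorting genes called lower in HD-homo cells (4 to 1 against control, 5 to 3 against HD-het) became fewer. With at least 10 counts in every library, BEX and TCEAL genes went from 3 to 0 higher and 3 to 1 lower in HD-het cells, from 1 to 0 higher and 6 to 3 lower in HD-homo cells, and from 1 to 0 higher and 8 to 3 lower between the mutant lines, and window genes from 6 to 3 both ways in HD-homo cells and from 8 to 5 higher and 12 to 7 lower between the mutant lines. Genes with fewer than 10 counts in any library, among them 6 of the 9 tested BEX and TCEAL genes, left the test under this requirement. With only the 6 libraries compared in the fit, Armcx6 did not pass the filter in either comparison against control. Depth limits Gprasp2, Armcx6 and, in control cells, Bhlhb9.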
